A study of Homo sapiens with 12 samples.

Results

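Cholesterol efflux and trafficking were followed through 10 genes in U937 cells, a human line from a histiocytic lymphoma that takes on monocyte and macrophage features under phorbol 12-myristate 13-acetate (PMA). The genes were ABCA1, ABCG1, APOE, APOC1, MYLIP, NPC1, NPC2, NR1H3, LPCAT3 and SOAT1. All 30 probe sets that the HG-U133 Plus 2.0 annotation pairs with these symbols were used, out of 54613 probe sets that are not controls, and the 10 genes were 10 of 19775 genes measured. The symbols were listed with earlier results of these data known. There were 4 groups of 3 arrays, from biological replicates per the labels: PMA with doxycycline, PMA alone, vehicle with doxycycline and vehicle alone. Every group carried the same TRIPZ Tet-On hairpin cassette (1 clone ID) and grew in puromycin, and doxycycline switches the cassette on. The hairpin targets ZXDC1 and ZXDC2, and the study asked what the factor does during PMA-driven differentiation. The dose of doxycycline was 0.5 µg/mL on each of 4 days. PMA at 100 nM, or its vehicle, DMSO at 0.1%, was added once 2 of those days had passed and acted for 3 days. These durations are as the labels give them and do not add up, so whether doxycycline was present to the end of PMA treatment is not clear. Cells with an unrelated hairpin or with none were not analysed here, so an effect of doxycycline itself and one of the hairpin cannot be told apart.

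Macrophages take up cholesterol with lipoproteins and debris and cannot break its ring down, so they store it as esters or pass it on. Cholesterol freed in the lysosome is handed from NPC2, a soluble carrier, to NPC1, a membrane transporter, and leaves the organelle. At the endoplasmic reticulum SOAT1 esterifies the surplus for storage in droplets. Oxidised sterols bind the liver X receptors, one of which NR1H3 encodes, and these receptors switch on ABCA1 and ABCG1, which load cholesterol onto apolipoproteins and onto high-density lipoprotein, as well as APOE, APOC1, MYLIP and LPCAT3.

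Each value below is a signal on the log2 scale as deposited, so a difference of 1 is a doubling, and error is SE for a difference. For each gene the probe set with the highest mean stands for it unless another is named, differences come from a limma fit over all genes, and a gene is said to rise or fall where its Benjamini-Hochberg adjusted p lay under 0.05. Signals of different probe sets are not on a common scale and are compared only within a probe set. The array medians lay between 5.16 and 5.22. In doxycycline-treated cells ZXDC signal was lower in 6 of 6 same-numbered pairs (-0.50 averaged over both agents, exact permutation p = 0.005, two-sided, or -0.39 and p = 0.0556 without the arrays numbered 1), while limma's test adjusted over all genes did not call it (adjusted p = 0.42). The 0.005 is the smallest p that 400 relabelings can give, and the relabelings did not keep same-numbered arrays paired. The 4 arrays numbered 1 stood apart: their ACTB 3' minus 5' control signal was 1.99 to 2.72, against 0.71 to 1.64 on the other 8, and PMA differences without them stand beside each gene. Of the 8 measured monocyte and macrophage markers 5 rose under PMA alone, with an average over the 8 of 7.75 to 8.46 on arrays of PMA alone, against 5.84 to 6.03 on arrays of vehicle alone. The rest were not called. LYZ averaged 12.05 under PMA alone and 12.6 under vehicle alone, a difference of -0.55 in the other direction (adjusted p = 0.0775). SPI1 differed by 0.30 (adjusted p = 0.125), and MRC1 averaged 2.82 under PMA alone and 2.81 under vehicle alone. Among 22 markers of 8 other cell types 2 rose, PPBP of megakaryocytes (4.13) and NCAM1 of natural killer cells (0.65). The 3 megakaryocyte markers averaged 4.81 to 6.64 on arrays of PMA alone, against 4.49 to 4.64 on arrays of vehicle alone, with PF4 and ITGA2B differing by -0.02 and -0.06. The 3 natural killer cell markers averaged 5.33 to 5.58 under PMA alone, against 5.04 to 5.23 under vehicle alone. Every array came from U937 cells, and whether these marker rises have a part in the results below was not tested. In such bulk RNA, more cells that express a gene and more RNA per cell cannot be told apart.

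PMA moved 7 of the 10 genes, and the same 7 with and without doxycycline. ABCA1, NPC1, APOC1, NR1H3, APOE and NPC2 rose, MYLIP fell, and LPCAT3, SOAT1 and ABCG1 did not pass the test. With doxycycline 6 members rose and 1 fell, where 32.5% of all genes were called (13.0% higher and 19.5% lower). Without doxycycline the counts were also 6 and 1, where 31.7% of all genes were called (12.7% higher and 18.9% lower). The median difference of the 10 genes was 0.66 with doxycycline and 0.69 without, beside -0.01 and 0.01 over all genes. The arrays of the 2 groups did not overlap for 7 members with doxycycline (42.5% of all genes) and for 8 without (41.8% of all genes), the eighth being SOAT1. The 2 comparisons use separate arrays but share 1 estimate of the spread. Same-numbered arrays within an agent also deviated together (correlations 0.25 to 0.64), so the comparisons are not independent.

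**Figure D1:**
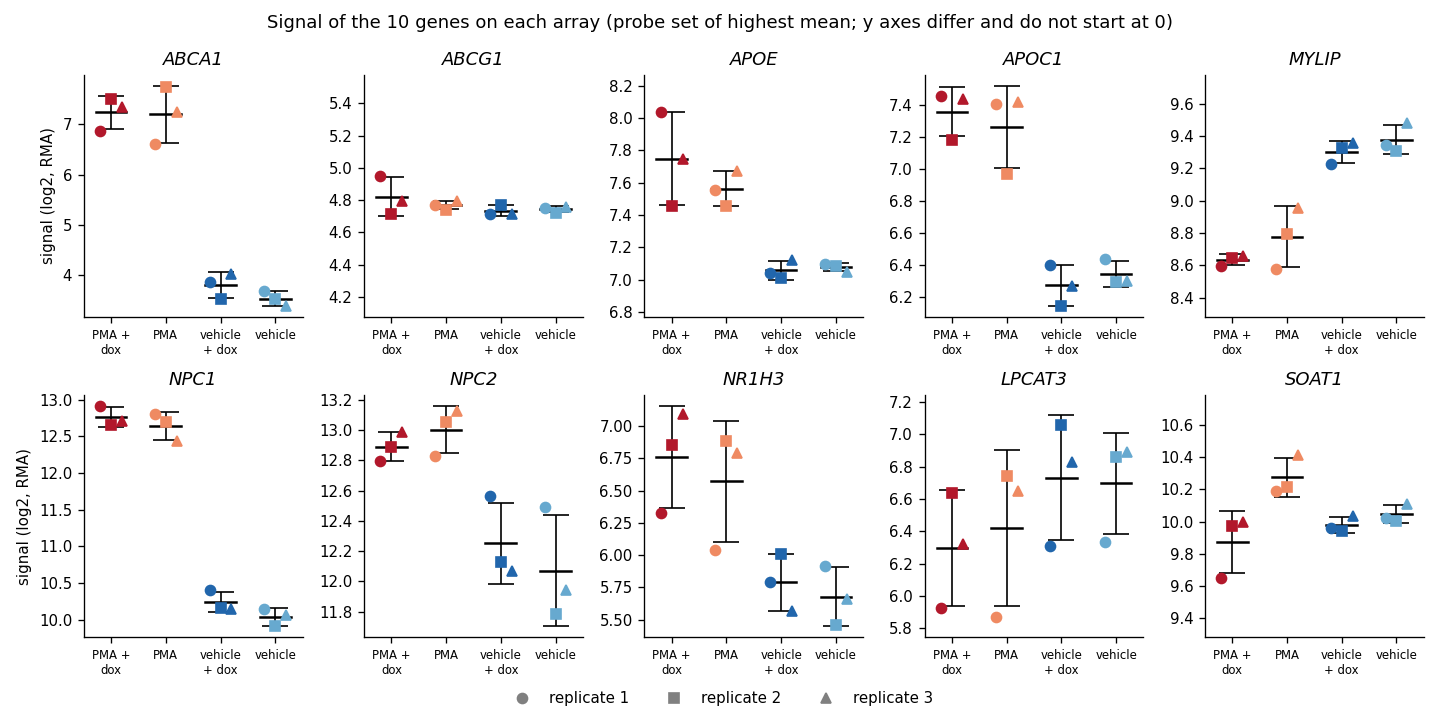
Signal (log2) of the 10 genes on each of the 12 arrays, with group means and SD; columns run from PMA with doxycycline to vehicle alone, symbols give the replicate number, and each y axis has its own range. ABCA1 and NPC1 show the widest gaps between PMA and vehicle, MYLIP lies lower under PMA, and ABCG1 stays within 4.72 to 4.95 throughout.

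ABCA1, the transporter that moves cholesterol and phospholipid out of the cell to lipid-poor apolipoprotein, had the largest change of the 10 by the probe set with the highest mean. Its probe set 203505_at read 6.87, 7.50 and 7.35 under PMA with doxycycline, against 3.86, 3.53 and 4.02 under vehicle with doxycycline. Without doxycycline it read 6.60, 7.74 and 7.25 under PMA, against 3.68, 3.52 and 3.39 under vehicle. Every PMA array lay more than 2 log2 units above every vehicle array. The differences were 3.44 (SE 0.24, adjusted p = 1.03e-07) with doxycycline and 3.67 (SE 0.24, adjusted p = 6.66e-08) without, which are 10.9-fold and 12.7-fold. The vehicle readings lay below the array medians of 5.16 to 5.22, so these fold values rest on a faint baseline. The PMA arrays numbered 1 were the lowest of their groups, below the mean of the other arrays by 0.56 with doxycycline and by 0.89 without, and leaving out the arrays numbered 1 gave 3.66 and 4.04.

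A second ABCA1 probe set, 203504_s_at, rose alike, by 3.29 and 3.21. The remaining pair, 1570279_at and 216066_at, differed by only 0.03 to 0.16 and was not called, and among all probe sets their average signals ranked at percentile 19.1 for 1570279_at and 36.7 for 216066_at. Averaging the 4 probe sets therefore gave smaller rises of 1.73 and 1.76, and by such means APOC1 rose by 2.04 with doxycycline and 1.74 without, so the order of the 10 depends on the choice of probe set.

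The RefSeq promoter table (GRCh38.p14) held 15 transcription starts of 9 of the 10 genes. ABCG1 had no entry. The 250 bases before each start were searched on both strands for AGGTCA followed by 4 free bases and AGGTCA again, the repeat that liver X receptors bind, with up to 2 mismatches, which 2.03% of 35116 promoter windows of that length hold. Of the 15 windows 1 held it, that of ABCA1, and sequence outside the windows was not searched. With 3 mismatches allowed, 16.0% of all windows and those of ABCA1, APOC1 and NPC2 held it. The ABCA1 window is printed because this gene changed most by its highest-mean probe set and carries the repeat, at bases -69 to -54 from the start on the opposite strand with 2 mismatches. Capitals also mark CACGTG, the E-box core (-147 to -142, in 6.34% of windows), and GGGCGG, the GC box bound by Sp factors (at -189, -163 and -97, in 42.6% of windows). The motifs do not overlap here. The window is chr9:104928156-104928405, minus strand.

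ABCA1: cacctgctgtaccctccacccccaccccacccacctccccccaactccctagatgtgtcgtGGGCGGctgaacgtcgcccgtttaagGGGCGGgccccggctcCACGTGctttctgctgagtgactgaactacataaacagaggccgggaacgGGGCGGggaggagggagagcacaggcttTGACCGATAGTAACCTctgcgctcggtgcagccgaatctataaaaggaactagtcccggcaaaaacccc

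A match is a description of letters and shows no binding. TGANTCA, the motif of AP-1, a factor that phorbol esters are known to activate, was in 6.57% of all windows and in 0 of the 15. GCGTGGGCG, the early growth response motif, was in 0.72% of all windows and in 0 of the 15.

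ABCG1, which passes cholesterol to mature lipoprotein particles, showed no change that passed the test. Probe set 211113_s_at read 4.95, 4.72 and 4.80 under PMA with doxycycline, against 4.72, 4.77 and 4.72 under vehicle with doxycycline. PMA alone gave 4.77, 4.74 and 4.79, against 4.75, 4.72 and 4.76 under vehicle alone. The groups overlapped. The differences were 0.09 (95% interval -0.12 to 0.29) and 0.02 (-0.18 to 0.23), both intervals spanning 0. All 4 of its probe sets were uncalled, and their average signals lay at percentiles 5.6 to 42.2 of all probe sets, so a change in a faint transcript may not be measurable here. Leaving out the arrays numbered 1 gave 0.01 and 0.03.

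NR1H3, liver X receptor alpha, rose. Its single probe set read 6.33, 6.86 and 7.10 under PMA with doxycycline, against 5.79, 6.01 and 5.57 under vehicle with doxycycline. PMA alone gave 6.04, 6.89 and 6.79, against 5.92, 5.46 and 5.66 under vehicle alone. The groups did not overlap, although PMA array 1 came within 0.12 of vehicle array 1. The rises were 0.97 (SE 0.23, adjusted p = 0.00458) with doxycycline and 0.89 (SE 0.23, adjusted p = 0.00826) without. Leaving out the arrays numbered 1 gave 1.19 and 1.28.

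MYLIP, a ubiquitin ligase that marks the LDL receptor for degradation, was the member that fell. Probe set 228098_s_at read 8.60, 8.65 and 8.66 under PMA with doxycycline, against 9.23, 9.33 and 9.36 under vehicle with doxycycline. PMA alone gave 8.58, 8.80 and 8.96, against 9.35, 9.31 and 9.48 under vehicle alone. All 6 PMA arrays lay below all 6 vehicle arrays. The differences were -0.67 (SE 0.11, adjusted p = 0.000273) and -0.60 (SE 0.11, adjusted p = 0.000696), and leaving out the arrays numbered 1 gave -0.69 and -0.52.

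Of the 6 MYLIP probe sets 4 were called lower with doxycycline and 3 without, and all 6 differences were below 0 in both comparisons. Probe set 220319_s_at fell by 0.63 with doxycycline and read -0.32 without (adjusted p = 0.0931). The probe sets 227707_at and 228097_at were not called in either comparison. The called ones all carry names that mark probes shared between transcripts (_s_at or _x_at). The 228097_at signal differed by -0.81 and -0.59, with an SE of 0.34, and its replicates spread more widely than those of the others. Its readings climbed from number 1 to number 3 in each of the 4 groups, and the fit, which has no replicate term, counts that as spread.

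The MYLIP promoter window is shown as that of the member that moved opposite to ABCA1. It held 3 GC boxes (GGGCGG at -170, -98 and -44) and, on the opposite strand, 2 CCAAT boxes (-109 and -68, the motif of NF-Y, in 32.0% of windows), printed as ATTGG. It is chr6:16128836-16129085, plus strand.

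MYLIP: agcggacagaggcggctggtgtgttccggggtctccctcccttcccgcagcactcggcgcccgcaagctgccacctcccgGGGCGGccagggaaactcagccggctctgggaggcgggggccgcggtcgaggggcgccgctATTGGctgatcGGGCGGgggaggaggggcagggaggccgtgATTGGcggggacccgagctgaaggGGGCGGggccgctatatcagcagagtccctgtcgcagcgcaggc

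APOE and APOC1 encode apolipoproteins that macrophages secrete and that lie next to each other on chromosome 19. APOE, which accepts exported cholesterol, read 8.04, 7.46 and 7.75 on probe set 212884_x_at under PMA with doxycycline, against 7.04, 7.01 and 7.12 under vehicle with doxycycline. PMA alone gave 7.56, 7.46 and 7.67, against 7.10, 7.08 and 7.05 under vehicle alone. The groups did not overlap. APOE rose by 0.69 (SE 0.13, adjusted p = 0.000828) with doxycycline and by 0.49 (SE 0.13, adjusted p = 0.0105) without. Leaving out the arrays numbered 1 gave 0.54 and 0.50. The other 2 APOE probe sets were also called, with rises of 1.12 and 1.13 with doxycycline and 1.07 and 0.83 without.

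APOC1, a small apolipoprotein that modulates lipoprotein enzymes and receptors, rose on both of its probe sets but by different amounts. On 213553_x_at it read 7.46, 7.19 and 7.44 under PMA with doxycycline, against 6.40, 6.14 and 6.27 under vehicle with doxycycline. The rises on that probe set were 1.09 (SE 0.14, adjusted p = 2.1e-05) and 0.92 (SE 0.14, adjusted p = 0.000104), or 1.11 and 0.90 without the arrays numbered 1. On 204416_x_at they were 3.00 and 2.55, with readings of 9.05, 7.96 and 7.97 under PMA with doxycycline, against 5.58, 5.16 and 5.25 under vehicle with doxycycline. No PMA array overlapped a vehicle array on either probe set. All 5 probe sets of APOE and APOC1 carry names of shared probes, so with such probe sets left out neither gene could be tested.

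NPC1, the lysosomal membrane transporter, had the second largest rise by the probe set with the highest mean. Probe set 202679_at read 12.91, 12.66 and 12.71 under PMA with doxycycline, against 10.40, 10.17 and 10.15 under vehicle with doxycycline. PMA alone gave 12.81, 12.70 and 12.43, against 10.15, 9.91 and 10.07 under vehicle alone. All 6 PMA arrays lay above all 6 vehicle arrays. NPC1 rose by 2.52 (SE 0.13, adjusted p = 4.4e-09), or 5.74-fold, with doxycycline and by 2.60 (SE 0.13, adjusted p = 3.71e-09), or 6.07-fold, without. Leaving out the arrays numbered 1 gave 2.53 and 2.58.

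Probe set 217584_at of NPC1 rose by 2.02 and 2.25, and 238568_s_at by 0.92 and 1.44. The fourth, 238873_at, differed by 0.13 and 0.21 and was not called, with an average signal at percentile 14.3. Averaged over the 4 probe sets, NPC1 rose by 1.40 and 1.62, less than APOC1. Its promoter window is printed for contrast with that of ABCA1: it held 2 GC boxes (-250 on the opposite strand, printed as CCGCCC, and -25) and no other motif of those searched. It is chr18:23586507-23586756, minus strand.

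NPC1: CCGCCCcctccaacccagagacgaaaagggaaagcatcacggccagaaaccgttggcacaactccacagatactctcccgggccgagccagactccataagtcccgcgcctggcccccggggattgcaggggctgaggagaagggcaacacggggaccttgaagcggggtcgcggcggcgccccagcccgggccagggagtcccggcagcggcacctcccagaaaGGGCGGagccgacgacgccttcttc

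NPC2, the soluble carrier, rose by 0.64 (SE 0.18, adjusted p = 0.0118) with doxycycline and by 0.93 (SE 0.18, adjusted p = 0.000868) without. It read 12.79, 12.89 and 12.98 under PMA with doxycycline, against 12.56, 12.12 and 12.07 under vehicle with doxycycline. PMA alone gave 12.83, 13.05 and 13.12, against 12.49, 11.78 and 11.94 under vehicle alone. The groups did not overlap, and both vehicle arrays numbered 1 were the highest of their groups, above the mean of the other arrays by 0.46 with doxycycline and 0.62 without. Leaving out the arrays numbered 1 gave 0.84 and 1.23. The call with doxycycline was lost without vehicle-with-doxycycline replicate 2 (0.57, adjusted p = 0.0511) or replicate 3 (0.55, adjusted p = 0.0587).

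**Figure D2:**
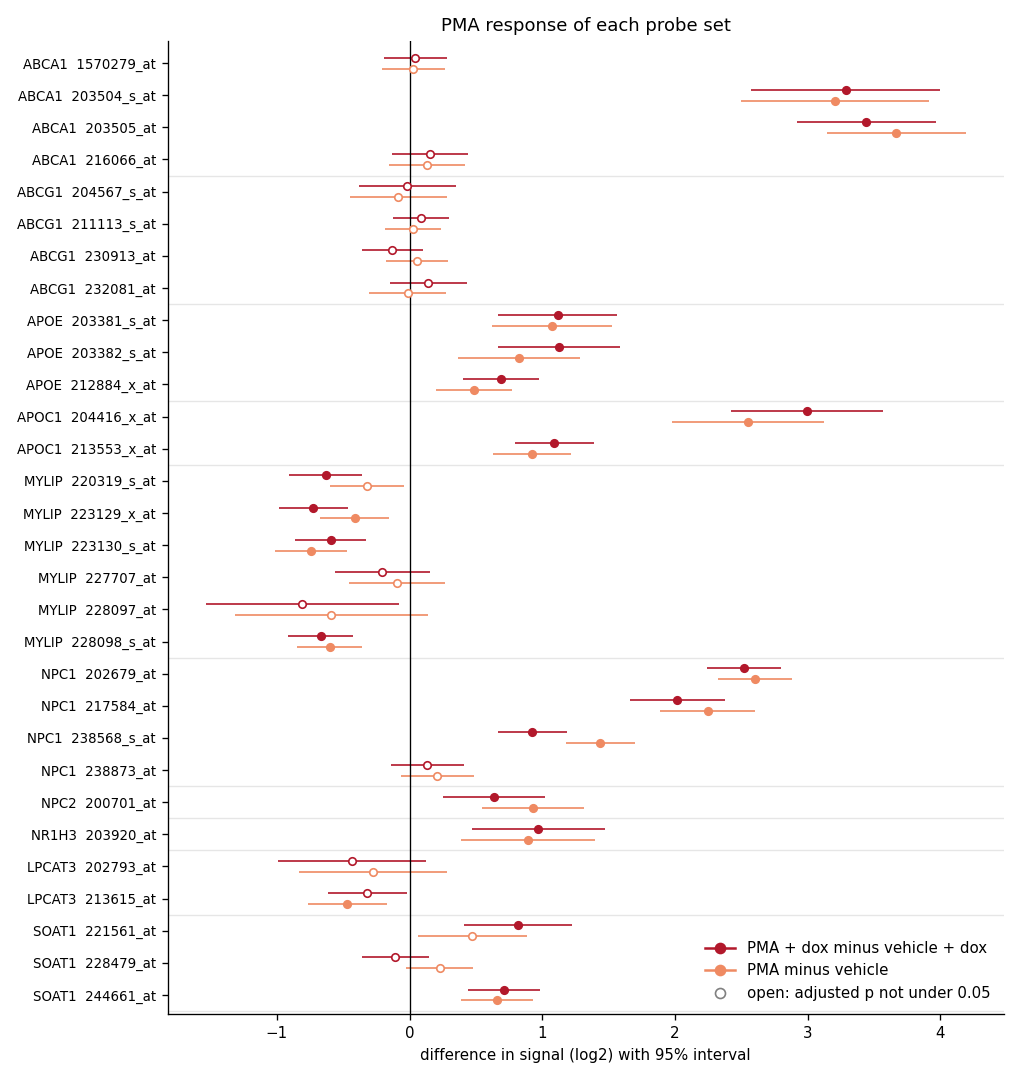
PMA minus vehicle difference in signal (log2, with 95% interval) for each of the 30 probe sets, upper points with doxycycline and lower points without; filled points passed the adjusted test over all probe sets. ABCA1, NPC1, MYLIP and SOAT1 hold called and uncalled probe sets side by side, as LPCAT3 does without doxycycline, and every ABCG1 interval spans 0.

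Over single probe sets, 18 of the 30 were called with doxycycline (14 higher and 4 lower), where 24.5% of all probe sets were. Without doxycycline 17 were called (13 higher and 4 lower), where 23.6% of all were. Probe sets of 1 gene share transcripts and are not independent, so these counts describe the array and are not replicates.

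LPCAT3, an acyltransferase that places polyunsaturated chains in membrane phospholipid, did not pass the test on its main probe set. It read 5.93, 6.64 and 6.32 under PMA with doxycycline, against 6.31, 7.06 and 6.83 under vehicle with doxycycline. PMA alone gave 5.87, 6.74 and 6.65, against 6.34, 6.86 and 6.89 under vehicle alone. The groups overlapped, since in each of the 4 groups array 1 read lower than the mean of the other arrays, by 0.54 to 0.83. The differences were -0.44 (SE 0.26, adjusted p = 0.243) and -0.28 (SE 0.26, adjusted p = 0.5). Leaving out the arrays numbered 1 gave -0.46 (adjusted p = 0.0199) with doxycycline, which passed, and -0.18 (adjusted p = 0.367) without. The second probe set, 213615_at, fell by 0.47 without doxycycline (adjusted p = 0.023) and read -0.32 with it (adjusted p = 0.123).

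SOAT1, the enzyme that makes cholesteryl esters, depended on the probe set. On 228479_at it read 9.65, 9.97 and 10.00 under PMA with doxycycline, against 9.96, 9.94 and 10.04 under vehicle with doxycycline. PMA alone gave 10.19, 10.21 and 10.41, against 10.02, 10.01 and 10.11 under vehicle alone. The groups overlapped with doxycycline and did not without it. The differences, -0.11 (SE 0.11, adjusted p = 0.559) and 0.23 (SE 0.11, adjusted p = 0.166), did not pass the test, and were -0.01 and 0.26 without the arrays numbered 1. Probe set 244661_at rose by 0.71 and 0.66, and 221561_at rose by 0.82 with doxycycline and read 0.47 without (adjusted p = 0.0927). Averaged over its 3 probe sets SOAT1 rose by 0.47 (adjusted p = 0.0102) and 0.45 (adjusted p = 0.0137).

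**Figure D3:**
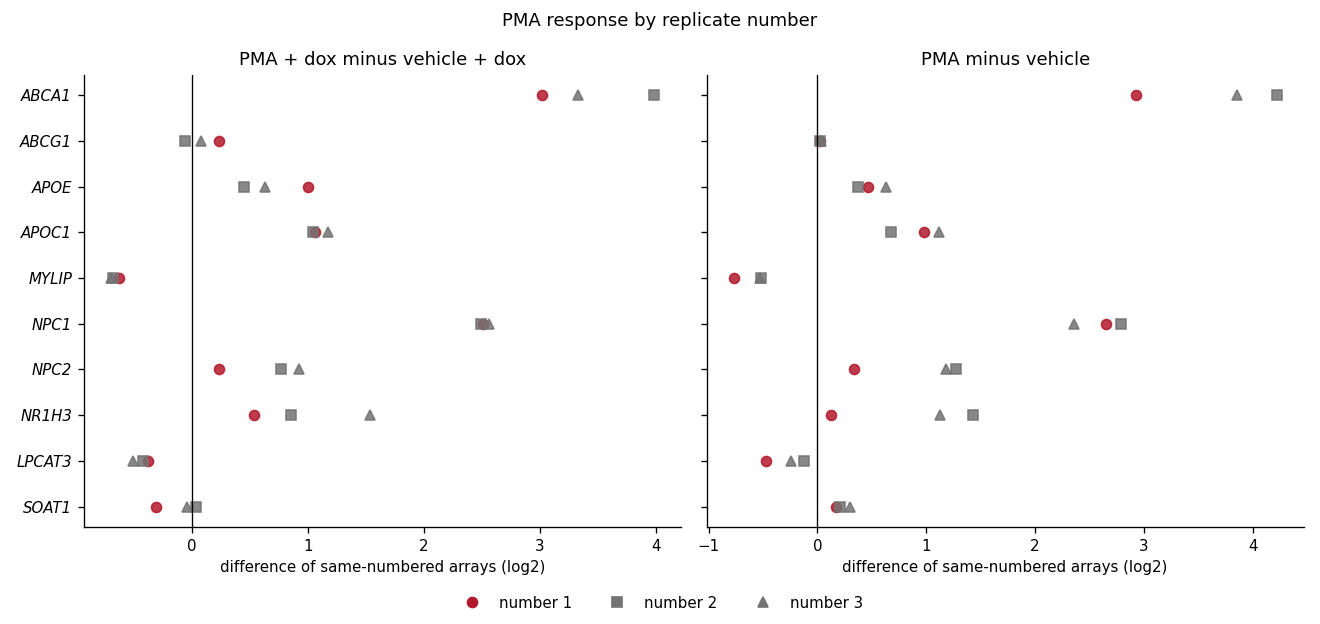
PMA minus vehicle difference (log2) of arrays with the same replicate number, for each gene, with doxycycline on the left and without on the right; number 1 is red. For ABCA1, NR1H3 and NPC2 number 1 gave the smallest difference in both comparisons. The values were 3.02 and 2.93 for ABCA1, 0.53 and 0.12 for NR1H3 and 0.23 and 0.34 for NPC2. For SOAT1 number 1 gave the lowest value in both, -0.31 and 0.17, while NPC1 stayed within 2.36 to 2.79. Across agents same-numbered arrays correlated by only -0.01 to 0.20, so these differences describe the arrays and are not paired replicates.

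Doxycycline left the 10 genes without a called change. In PMA-treated cells 0 of the 10 passed limma's adjusted test, where 0.00506% of all genes (1 gene, or 53 with same-numbered arrays paired) did. In vehicle-treated cells 0 passed, where 0% of all genes did, and the same held for the average over both agents and for the interaction of PMA with doxycycline. The smallest adjusted p of the 10 was 0.491, that of SOAT1 in PMA-treated cells. In the fit without pairing, the 95% intervals of the 10 genes lay between -0.68 and 0.69 in PMA-treated cells and between -0.52 and 0.79 in vehicle-treated cells. The median difference was 0.05 in PMA-treated and 0.01 in vehicle-treated cells, beside -0.01 and 0.02 over all genes.

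At an unadjusted p under 0.05, 1 of the 10 genes passed in PMA-treated cells (6.13% of all genes did), 0 in vehicle-treated cells (2.58%), 1 in the average (6.05%) and 0 in the interaction (2.62%). The gene was SOAT1, whose 228479_at values under PMA were lower with doxycycline in all 3 pairs. The difference was -0.40 (95% interval -0.65 to -0.15, unadjusted p = 0.00371), or -0.33 without the arrays numbered 1, and its other 2 probe sets differed by -0.01 and -0.17. SOAT1 was also the only member whose groups did not overlap in PMA-treated cells (10.7% of all genes), and NPC1 the only one in vehicle-treated cells (8.56% of all genes), where it differed by 0.20 (95% interval -0.08 to 0.47).

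Over single probe sets in PMA-treated cells, 3 of 30 had an unadjusted p under 0.05 (5.92% of all probe sets), and 0 of 30 in vehicle-treated cells (2.83%). Besides SOAT1 228479_at these were APOE 203382_s_at and NPC1 238568_s_at. APOE 203382_s_at read 7.47, 6.90 and 6.90 under PMA with doxycycline, against 6.83, 6.52 and 6.26 under PMA alone, a difference of 0.55 (adjusted p = 0.795). NPC1 238568_s_at read 6.67, 6.73 and 6.80 under PMA with doxycycline, against 7.28, 7.01 and 7.04 under PMA alone, a difference of -0.37 (adjusted p = 0.704). The main NPC1 probe set differed by 0.12 in the other direction.

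**Figure D4:**
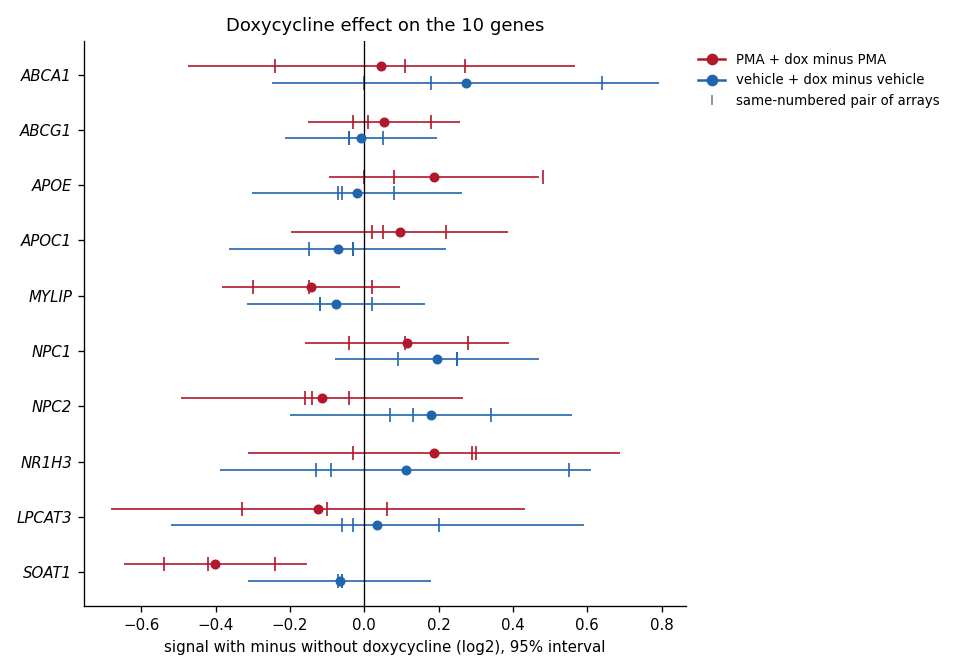
Signal with minus without doxycycline (log2, with 95% interval) for the 10 genes in PMA-treated cells (upper points) and vehicle-treated cells (lower points); ticks are same-numbered pairs of arrays. In PMA-treated cells the interval of SOAT1 alone leaves out 0, and none of the differences passed the adjusted test.

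Other genes of sterol handling were counted in 8 lists, read against all genes, of which 12.7% rose and 18.9% fell under PMA alone. Among receptors and cofactors of the LXR, RXR and PPAR group, 4 of 6 measured rose and 1 fell under PMA alone. PPARD, a lipid-sensing receptor, rose by 1.54, PPARG, a macrophage and fat cell receptor, by 0.89 and PPARA by 0.72, while NCOA1, a coactivator, fell by 0.54. Of 13 other liver X receptor targets 5 rose and 1 fell, beside the same shares of all genes. MERTK, a receptor for dying cells, rose by 1.35, APOC2, a neighbour of APOE and APOC1, by 0.78 and SMPDL3A by 0.60. PLTP, a phospholipid transfer protein, fell by 0.98, so the list moved in both directions.

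Of 22 lysosomal and membrane-contact carriers of sterol 9 rose and 3 fell under PMA alone, and 11 rose and 3 fell with doxycycline. Over all genes 12.7% rose and 18.9% fell under PMA alone, and 13.0% rose and 19.5% fell with doxycycline. PSAP, the precursor of lysosomal saposins, rose by 1.95, OSBPL11, an oxysterol-binding protein homologue, by 1.80 and LIPA, the lysosomal acid lipase that frees cholesterol from its esters, by 1.53. GRAMD1B, which moves sterol from the plasma membrane to the endoplasmic reticulum, fell by 1.04, OSBPL1A by 0.83 and OSBPL5 by 0.51.

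Uptake receptors gave 2 of 9 higher and 1 lower, with CD36, a scavenger receptor, at 3.65, OLR1, a receptor for oxidised LDL, at 2.95 and SORL1 at -1.21, so 3 of 9 were called, near the 31.7% of all genes. Enzymes of esterification, hydrolysis and oxidation gave 4 of 10 higher and 1 lower, beside 12.7% and 18.9% of all genes. CYP27A1, which makes 27-hydroxycholesterol, rose by 2.54, NCEH1, which hydrolyses cholesteryl esters, by 1.98 and PLIN2, a lipid droplet coat protein, by 0.72. CYP46A1, which makes 24-hydroxycholesterol, fell by 2.42.

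Of the sterol-sensing and synthesis list 5 of 11 rose and 2 fell (12.7% and 18.9% of all genes), with SQLE at 1.65, HMGCS1 at 1.14 and DHCR7 at 0.57, all enzymes of sterol synthesis, and with LSS at -0.45 and SCAP, the sterol sensor, at -0.31. Of 10 other ABC transporters of lipids 1 rose under PMA alone, ABCA7 by 0.50, and 0 fell, beside 31.7% called over all genes. With doxycycline 3 of the 10 rose and 0 fell, beside 32.5% called over all genes. Of 8 lysophospholipid acyltransferases other than LPCAT3, MBOAT7 (0.94) and LPCAT4 (0.70) rose and MBOAT1 (-0.48) fell, near the 31.7% of all genes. In the PMA comparison with doxycycline, 3 sterol-sensing genes rose and 2 fell, and 2 acyltransferases rose and 2 fell. Uptake receptors and the enzymes of esterification, hydrolysis and oxidation each gave 3 higher and 1 lower there. The receptors and cofactors and the other liver X receptor targets each gave 4 higher and 1 lower. Over all genes 13.0% rose and 19.5% fell in that comparison. Doxycycline moved 0 genes past the adjusted test in each of the 8 lists, in PMA-treated and in vehicle-treated cells.

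**Figure D5:**
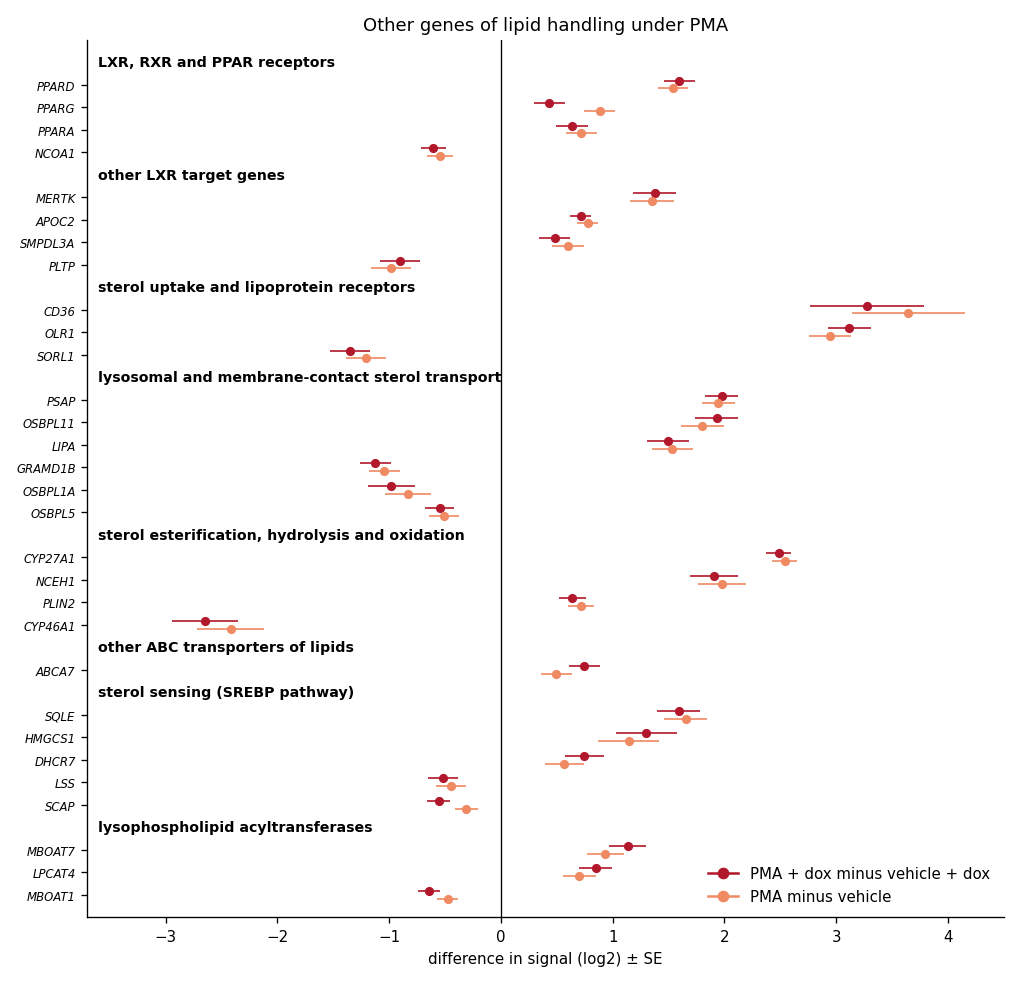
PMA minus vehicle difference (log2 ± SE) of the genes named from the 8 lists, upper points with doxycycline and lower points without. CD36, OLR1 and CYP27A1 lie furthest to the right and CYP46A1 furthest to the left, in both comparisons.

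The genes whose profiles lay nearest to that of ABCA1 over the 12 arrays, each centred on its own mean, were RGCC, a cell cycle regulator, ITGB5, an integrin subunit, and SLC2A3, a glucose transporter. Their root mean square differences from ABCA1 were 0.22, 0.24 and 0.25. RGCC rose by 3.64, ITGB5 by 3.28 and SLC2A3 by 3.35 under PMA alone. Rises close to that of ABCA1 follow from picking the genes by nearness over these same arrays. Nearest to MYLIP were CDK5RAP1, a tRNA-modifying enzyme (0.04), MRPL23, a mitochondrial ribosomal protein (0.06), and ANAPC5, a subunit of the anaphase-promoting complex (0.07). None of these 6 was among the 10 genes.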

How the data were processed

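Total RNA of 12 cultures (4 groups of 3) was labelled from 100 ng and hybridised to 1 array each, per the labels. The submitters' processing notes name RMA as the source of the deposited log2 signals; its version, its settings and the scanner software have no entry in the labels or notes used here. No scaling was added. Symbols came from GEO's platform annotation and were updated through Entrez numbers. The fit was limma 3.58.1 (R 4.3.3; lmFit, eBayes, 4 group means, 8 residual degrees of freedom), two-sided, with Benjamini-Hochberg adjustment over 19775 genes, 1 probe set a gene (highest mean), and separately over 54613 probe sets. The fit was tested on simulated data. Same-numbered arrays within an agent deviated together (correlations 0.25 to 0.64), which pairs doxycycline with no doxycycline; across agents they did not in every pair (-0.01 to 0.20). ZXDC was tested by exact permutation within agent (400 relabelings), without keeping same-numbered arrays paired. The members, the 8 lists and the tests were chosen with earlier results of these data known. Named from each list were up to 3 called genes with the largest rise and up to 3 with the largest fall in PMA minus vehicle; for the members that rose and fell most, the 3 nearest profiles. Alternatives changed the probe set rule, filter, scaling, variance prior, arrays and blocks. The number of arrays limits the precision.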

Additional observations from a re-analysis of the deposited data

Results flagged for a closer look

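For APOC1 and NPC2 the doxycycline difference had opposite signs in PMA-treated and vehicle-treated cells in every same-numbered pair. APOC1 was higher with doxycycline in 3 of 3 pairs under PMA (0.02 to 0.22) and lower in 3 of 3 under vehicle (-0.15 to -0.03). The difference between those effects was 0.17 (95% interval -0.25 to 0.58, limma adjusted p = 1). NPC2 was lower with doxycycline in 3 of 3 pairs under PMA (-0.16 to -0.04) and higher in 3 of 3 under vehicle (0.07 to 0.34). The difference between those effects was -0.29 (95% interval -0.83 to 0.24, limma adjusted p = 1). Neither passed the test of the difference. APOC1 and NPC2 were picked for this sign pattern from these same arrays, and some of the pair differences lay close to no change. The share of all genes with the same pattern was not counted, so whether it is unusual cannot be told.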

How the results depend on the processing

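Of 1262 member values under alternative settings, 1252 stayed on the same side of the threshold, 5 gained a call, 4 lost one and 1 reversed. The values that moved were all in the 2 PMA comparisons, where 200 with doxycycline and 204 without stayed. Many of the 1262 could hardly move, since leaving out an array of a group outside a comparison leaves its difference as it was. Of the 1252, 64 changed sign, each uncalled under both settings, 7 of them in the PMA comparisons (ABCG1, SOAT1 and LPCAT3). The reversal was SOAT1 with doxycycline, 0.47 by the mean of its probe sets against -0.11 by the brightest. The members called under PMA dropped to 4 with doxycycline and to 4 without when probe sets named for shared probes were dropped, because APOE and APOC1 have no others and MYLIP then read -0.81 (adjusted p = 0.0907) and -0.59 (adjusted p = 0.24). These MYLIP values come from a fit without a replicate term. Cyclic loess scaling gave SOAT1 a rise of 0.35 (adjusted p = 0.0226) without doxycycline, and a gene's mean of probe sets gave LPCAT3 -0.38 (adjusted p = 0.0478) with it; the cause was not tested. Leaving out 1 array at a time called 6 to 7 members with doxycycline (5500 to 6669 genes), 7 to 7 without (5267 to 6534 genes) and 0 to 0 in each doxycycline comparison. A replicate block over all groups gave LPCAT3 -0.44 (adjusted p = 0.00566) with doxycycline, so 8 members were called, and left 7 called without. Pairing same-numbered arrays within agents changed no member's call in the doxycycline comparisons, but over all genes called 53 in PMA-treated cells, against 1 without pairing, 2 with the block over all groups and 9 without the arrays numbered 1. The lower ZXDC signal, which limma did not call, had exact p-values over the threshold on 230106_at (-0.30, exact p = 0.105) and 230209_at (-0.33, exact p = 0.135), and without the arrays numbered 1 (-0.39, exact p = 0.0556, the smallest that 36 relabelings can give). Another scaling moved the median of all genes by at most 0.036.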
